A study of Arabidopsis thaliana with 6 samples.

Results

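The 10 genes described here act in flavonoid metabolism and were followed in whole Arabidopsis thaliana seedlings that carry or lack a mutation of GIGANTEA (GI). They were taken by gene identifier from the deposited table of read counts, and all 10 were found among its 32833 genes: 5 core enzymes (CHS, CHI, F3H, F3'H and FLS1), 2 glycosyltransferases (UGT78D1 and UGT78D2), 2 activators (MYB12 and MYB111) and 1 repressor (MYBL2). The gi-2 group, a mutant allele of the clock-associated gene GI, and the wild-type Col-0 group each held 3 libraries, and each library came from a pool of 40 to 60 seedlings. Both groups grew for 7 d on plates of 0.5x MS medium at 22 °C under 80 µmol m-2 s-1 of light for 8 h a day (short days, with 16 h of darkness), and both were frozen at ZT0, the moment of lights-on. The labels name 1 mutant allele and 1 time of day, so neither a second allele nor the daily course of these transcripts was measured.

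Flavonoids are phenolic pigments and ultraviolet screens made from phenylalanine. Chalcone synthase (CHS) condenses the phenylpropanoid product p-coumaroyl-CoA with malonyl-CoA, chalcone isomerase (CHI) closes the ring, and flavanone 3-hydroxylase (F3H) makes dihydroflavonols. Flavonoid 3'-hydroxylase (F3'H) adds the hydroxyl group that separates quercetin from kaempferol derivatives, flavonol synthase (FLS1) makes flavonols, and UGT78D1 and UGT78D2 attach rhamnose and glucose to them. In seedlings the R2R3-MYB proteins MYB12 and MYB111 activate the early genes of this route, the small MYB protein MYBL2 represses it, mainly its anthocyanin branch, and light acts on it through the bZIP factor HY5.

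The 250 bases upstream of the annotated gene start are printed for the 4 members that changed between genotypes and for FLS1. The 4 members share a pathway but not a direction. FLS1 did not pass the test given below but holds an evening element. The bases were read from the RefSeq TAIR10.1 genome, 5′ to 3′ on the strand of the gene, and capitals mark a G-box or an evening element. CHS lies at chr5:4488226-4488475 (plus strand), FLS1 at chr5:2803583-2803832 (plus strand), UGT78D1 at chr1:10814362-10814611 (plus strand), UGT78D2 at chr5:5609590-5609839 (minus strand) and MYBL2 at chr1:26796533-26796782 (minus strand).
CHS: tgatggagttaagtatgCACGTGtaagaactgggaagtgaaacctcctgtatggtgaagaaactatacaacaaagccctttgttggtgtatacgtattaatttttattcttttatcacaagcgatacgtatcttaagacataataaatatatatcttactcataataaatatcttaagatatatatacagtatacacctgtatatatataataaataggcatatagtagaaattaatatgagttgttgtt
FLS1: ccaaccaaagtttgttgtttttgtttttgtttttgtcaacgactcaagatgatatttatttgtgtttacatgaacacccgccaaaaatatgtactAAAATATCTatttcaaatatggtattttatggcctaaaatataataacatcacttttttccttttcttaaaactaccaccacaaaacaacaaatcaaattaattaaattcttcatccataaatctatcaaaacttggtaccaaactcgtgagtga
UGT78D1: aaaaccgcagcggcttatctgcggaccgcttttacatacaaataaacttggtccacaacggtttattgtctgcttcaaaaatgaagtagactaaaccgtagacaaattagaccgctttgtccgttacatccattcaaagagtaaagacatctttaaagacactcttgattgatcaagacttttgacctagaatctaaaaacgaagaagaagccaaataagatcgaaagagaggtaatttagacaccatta
UGT78D2: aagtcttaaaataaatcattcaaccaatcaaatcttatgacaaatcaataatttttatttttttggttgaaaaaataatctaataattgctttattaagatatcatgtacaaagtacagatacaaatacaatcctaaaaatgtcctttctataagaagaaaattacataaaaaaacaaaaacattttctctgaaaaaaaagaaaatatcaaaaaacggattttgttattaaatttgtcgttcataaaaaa
MYBL2: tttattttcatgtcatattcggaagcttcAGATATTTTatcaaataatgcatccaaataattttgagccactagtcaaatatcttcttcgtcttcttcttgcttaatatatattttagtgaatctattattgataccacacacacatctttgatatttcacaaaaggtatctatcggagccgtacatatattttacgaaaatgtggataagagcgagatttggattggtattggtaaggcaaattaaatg

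Both strands were searched for the letters CACGTG (the G-box, a site of bZIP and bHLH factors), ACCTACC and ACCAACC (MYB sites), AAAATATCT (the evening element of clock-controlled genes) and AAAAATCT (a binding site of the clock factor CCA1), none of which can lie inside another. A G-box stood upstream of CHS, F3H and MYB12, against 6.49% of the promoters of 27443 nuclear protein-coding genes. In CHS it covered bases 233 to 228 before the gene start. The evening element stood upstream of FLS1, at bases 155 to 147, and of MYBL2, on the opposite strand at bases 221 to 213, against 2.36% of all promoters. Neither MYB site (in 1.16% and 2.69% of all promoters) nor the CCA1 site (6.69%) was present in the window of any of the 10 members. UGT78D1 and UGT78D2, which fell, held none of these letters in their windows. A match of letters is a description of the sequence and not a measured binding site.

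Depth was similar across the libraries, at 18739317 to 23617717 counts per library, and levels are given as CPM, counts brought to a common total by the trimmed mean of M-values (TMM). The limit set by a count of 0 (3 counts) was 0.126 to 0.166 CPM. Transcript of GI itself averaged 3.11 ± 0.576 CPM in Col-0 against 8.02 ± 0.950 in the mutant (SD, n = 3 each; edgeR adjusted p = 0.000168), so its level does not check the label gi-2, and it says nothing of the protein. The markers fixed for shoot (5 genes) and root (6 genes) were detected in every library, as the label of whole seedlings implies, with summed levels of 62000 to 69000 CPM in gi-2 and 60800 to 65300 CPM in Col-0 for shoot. LHCB1.3, the 1 shoot marker called higher, made up most of that sum, and the other 4 (RBCS1A, RBCS3B, LHCB2.1 and PSAD1) were called lower, with log2 fold changes of -0.55, -1.24, -0.74 and -0.47. The root sum was 2300 to 2460 CPM in gi-2, below the 3530 to 3960 CPM of Col-0, and PYK10 alone made up most of it, at 2250 ± 73.5 CPM against 3710 ± 240 (SD, n = 3 each). Of the root markers 2 were called lower (PYK10 and COBL9) and 2 higher (CASP1 and CASP2, by 0.56 and 0.59). Of 7 embryo and seed storage markers, 2 were detected in every library and 4 were called higher. The summed level of all 7 was 20.9, 359 and 60.8 CPM in gi-2 replicates 1, 2 and 3 against 1.16 to 10.6 CPM in Col-0. CRA1 and CRU3 made up most of the sum in gi-2 replicate 2, at 261 and 81.8 CPM, and OLEO1 and OLEO2 were also highest there. SESA1, SESA3 and CRU2, which had too few counts to be tested, were highest in gi-2 replicate 1, at 32, 12 and 3 counts. Of 5 seed coat markers, 2 were detected in every library, and the sum was 0.851 to 1.90 CPM in gi-2 and 1.92 to 2.16 CPM in Col-0. On the second principal component (17.5% of the variance) Col-0 replicate 1 stood apart from the other Col-0 libraries. The part of shoot, root, seed and library differences in the results below was not tested. In whole seedlings, fewer cells of a type and less RNA per cell cannot be told apart.

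Setting gi-2 against Col-0 asked which steps of the pathway differ at lights-on. In all, 9 members were tested, since F3H had no counts: CHS, UGT78D1 and UGT78D2 were lower in gi-2, MYBL2 was higher, and CHI, F3'H, FLS1, MYB12 and MYB111 did not pass. Genes were called at a Benjamini-Hochberg adjusted p under 0.05 in edgeR's quasi-likelihood test over all 19699 genes tested. The 3 lower members stand against a background of 16.2% of tested genes called lower, and the 1 higher member against 16.3% called higher, together 32.6%. For 45.3% of tested genes, the 3 libraries of one genotype did not overlap the 3 of the other in CPM. The median log2 fold change was -0.72 over the 9 tested members, which is the value of MYB111, a member that did not pass. Over all tested genes the median was 0. The directions of the 4 called members did not depend on the scaling, and all 4 remained called in each of the 14 alternative analyses.

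**Figure D1:**
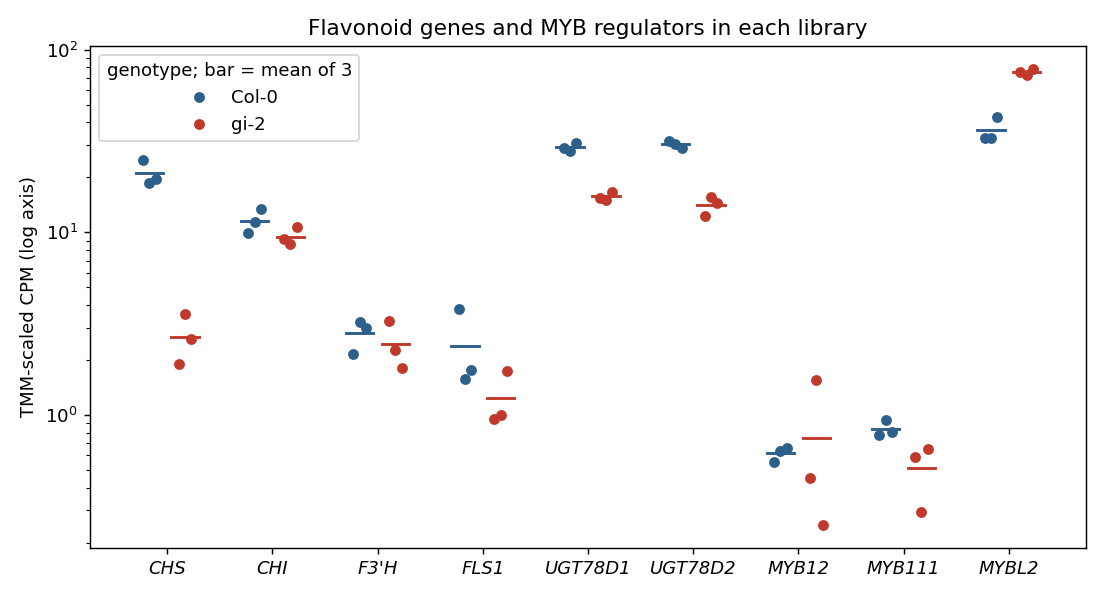
TMM-scaled CPM on a log axis for the 9 members with counts, with a point for each library and a bar for the mean of the 3 libraries of a genotype. CHS, UGT78D1 and UGT78D2 are lower and MYBL2 is higher in all 3 gi-2 libraries, and MYB12 is spread from 0.250 to 1.55 CPM in gi-2.

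CHS, the entry enzyme of the flavonoid route, showed the largest change of the members. The gene (AT5G13930) lies on chromosome 5 from 4488476 to 4490264. Its counts were 42, 85 and 52 in gi-2 replicates 1, 2 and 3 and 452, 377 and 387 in Col-0 replicates 1, 2 and 3. Every gi-2 library was below every Col-0 library, a lack of overlap seen, in either direction, for 45.3% of tested genes. The highest gi-2 library, replicate 2, was the one with the highest summed level of seed storage markers. In CPM the levels were 2.69 ± 0.830 in gi-2 and 21.0 ± 3.51 in Col-0 (SD, n = 3 each), so that gi-2 held 12.9% of the Col-0 level. The log2 fold change was -2.96 (SE 0.21, 95% interval -3.40 to -2.51; edgeR adjusted p = 1.22e-07), and 18 of the 19699 tested genes had a lower log2 fold change. Without gi-2 replicate 2 the value was -3.23. A gene on the other strand, AT5G13940, overlaps the last 2 bases of CHS and had 2 counts in all, in gi-2 replicate 3.

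CHI, the next enzyme, did not pass the test. The gene (AT3G55120, chromosome 3, 20430059 to 20431597) had 202, 205 and 213 counts in gi-2 and 178, 232 and 266 in Col-0. The ranges of the genotypes overlapped. Its log2 fold change was -0.29 (SE 0.16, 95% interval -0.63 to 0.05; edgeR adjusted p = 0.188), an interval that reaches from 0.644 to 1.04 times the Col-0 level. CHIL, a non-catalytic relative of CHI that aids CHS, was lower in gi-2, with 74, 84 and 69 counts against 139, 168 and 125 in Col-0. Its log2 fold change was -1.11 (SE 0.20; edgeR adjusted p = 0.000611).

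F3H, which acts after CHI, had no count in any of the 6 libraries. Its span (AT3G51240, chromosome 3, 19025192 to 19026872) is overlapped by AT3G51238, a long non-coding RNA gene annotated on the other strand from 19025110 to 19026779, which also had no count in any library. Of the 1508 exon bases of F3H, 1415 (93.8%) lie inside AT3G51238 and 93 do not. The libraries are not directional, so reads from the shared bases cannot be assigned by strand. Of 645 protein-coding genes with at least 90% of their span under genes on the other strand, 539 (83.6%) had no count in any library, while 3837 of 20776 protein-coding genes free of such overlap (18.5%) had none. The count of 0 is therefore not read as absence of F3H transcript. Besides F3H and CHS, no member is overlapped by another annotated gene.

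**Figure D2:**
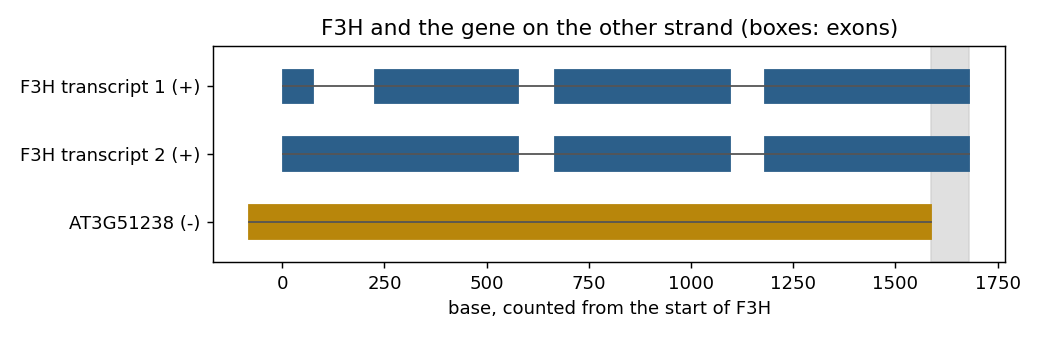
Exons of the 2 annotated F3H transcripts (blue) and of the gene on the other strand, AT3G51238 (gold), by base counted from the start of F3H. The grey band marks the 93 bases at the end of F3H that lie outside AT3G51238.

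The hydroxylase F3'H (AT5G07990, chromosome 5, 2560328 to 2563137) had 72, 54 and 36 counts in gi-2 and 39, 66 and 59 in Col-0. The genotypes overlapped, and the log2 fold change of -0.19 (SE 0.31, 95% interval -0.86 to 0.47; edgeR adjusted p = 0.677) has an interval that reaches from 0.552 to 1.38 times the Col-0 level. FLS1 (AT5G08640, chromosome 5, 2803833 to 2805606), the main flavonol synthase, had 21, 24 and 35 counts in gi-2 and 69, 32 and 35 in Col-0. Col-0 replicate 1 was above all the other libraries, while the remaining Col-0 libraries were close to gi-2 replicate 3. Its log2 fold change was -0.95 (SE 0.43, 95% interval -1.86 to -0.03; edgeR adjusted p = 0.107) and was -0.45 without Col-0 replicate 1. FLS5, a relative of FLS1 whose role in flavonol synthesis is uncertain, was higher in gi-2, at 250 ± 17.7 against 179 ± 4.48 CPM (SD, n = 3 each; log2 fold change 0.48, SE 0.08; edgeR adjusted p = 0.00022).

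Both glycosyltransferase genes fell, UGT78D1 to 53.6% and UGT78D2 to 46.6% of the Col-0 level. UGT78D1 (AT1G30530, chromosome 1, 10814612 to 10816615), which attaches rhamnose at position O-3 of flavonols, had 339, 359 and 333 counts in gi-2 and 524, 570 and 610 in Col-0. UGT78D2 (AT5G17050, chromosome 5, 5607788 to 5609589), which attaches glucose to flavonols and anthocyanidins, had 271, 373 and 288 counts in gi-2 and 571, 617 and 574 in Col-0. For both genes every gi-2 library was below every Col-0 library, a lack of overlap seen, in either direction, for 45.3% of tested genes. The spread within a genotype was small. UGT78D1 averaged 29.3 ± 1.44 CPM in Col-0 against 15.7 ± 0.861 in the mutant (SD, n = 3 each), and its log2 fold change was -0.90 (SE 0.10; edgeR adjusted p = 1.29e-05). UGT78D2 averaged 30.3 ± 1.31 CPM in Col-0 against 14.1 ± 1.68 in the mutant (SD, n = 3 each; log2 fold change -1.10, SE 0.11; edgeR adjusted p = 4.87e-06). Their relative UGT78D3, in the same cluster as UGT78D2, had no counts. Of the exon windows of 50 bases, 1 of 1522 in UGT78D2 and none of 1810 in UGT78D1 recurred elsewhere in the genome.

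**Figure D3:**
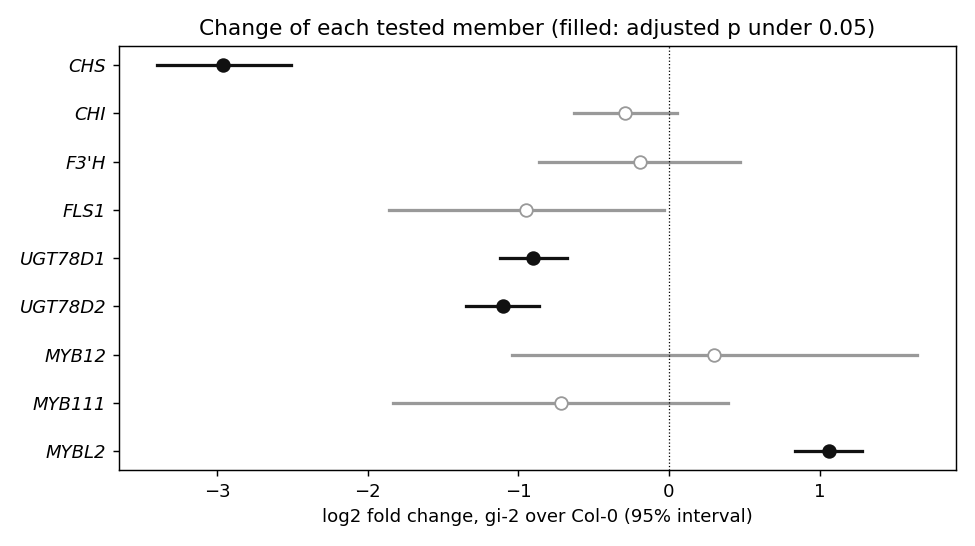
Log2 fold change of gi-2 over Col-0 with its 95% interval for the 9 tested members, in the order of the pathway, filled where the edgeR adjusted p is under 0.05. CHS stands at -2.96, UGT78D1 and UGT78D2 at -0.90 and -1.10 and MYBL2 at 1.06, and the intervals of CHI, F3'H, MYB12 and MYB111 include 0.

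Transcripts of the activators were scarce. MYB12 (AT2G47460, chromosome 2, 19476326 to 19479597) had 10, 37 and 5 counts in gi-2 and 10, 13 and 13 in Col-0. The Col-0 libraries were close together, while the gi-2 libraries lay on both sides of them, with replicate 2 at 1.55 CPM and replicates 1 and 3 at 0.454 and 0.250 CPM. The log2 fold change was 0.30 (SE 0.63, 95% interval -1.04 to 1.65; edgeR adjusted p = 0.754), and without gi-2 replicate 2, the library with a summed embryo marker level of 359 CPM, it was -0.79 (edgeR adjusted p = 0.454). The part of seed transcripts in the MYB12 value was not tested. MYB111 (AT5G49330, chromosome 5, 19998823 to 20001572) had 13, 7 and 13 counts in gi-2 and 14, 19 and 16 in Col-0. Its CPM values did not overlap between genotypes, which was so for 45.3% of tested genes, but the log2 fold change of -0.72 (SE 0.52, 95% interval -1.83 to 0.39; edgeR adjusted p = 0.32) did not pass. The intervals of both activators include a fall of the size measured for UGT78D1.

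MYBL2, the repressor, was the member that rose. The gene (AT1G71030, chromosome 1, 26795052 to 26796532) had 1662, 1736 and 1570 counts in gi-2 and 594, 671 and 845 in Col-0. All 3 gi-2 libraries were above all 3 Col-0 libraries, a lack of overlap seen, in either direction, for 45.3% of tested genes. Col-0 replicate 3 was the highest of its genotype. Col-0 averaged 36.2 ± 5.65 CPM against 75.5 ± 2.95 in the mutant (SD, n = 3 each), a 2.09-fold difference (log2 fold change 1.06, SE 0.10, 95% interval 0.84 to 1.28; edgeR adjusted p = 2.49e-06). Of the 19699 genes tested, 675 had a higher log2 fold change.

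Per length of transcript the order of the members differed between genotypes. In Col-0 the levels, in CPM per kilobase, were 25.9 ± 4.05 for MYBL2, 18.7 ± 0.809 for UGT78D2, 15.3 ± 0.755 for UGT78D1, 12.4 ± 2.06 for CHS and 10.4 ± 1.62 for CHI (SD, n = 3 each). CHS and CHI, next to each other in that order, lay within their spread. FLS1 and F3'H followed at 1.48 ± 0.770 and 1.45 ± 0.292 CPM per kilobase, also within their spread, and MYB111 and MYB12 were the lowest at 0.514 ± 0.0508 and 0.389 ± 0.0347. In gi-2, MYBL2 led at 54.1 ± 2.11 CPM per kilobase, UGT78D2, CHI and UGT78D1 were within their spread at 8.71 ± 1.04, 8.51 ± 0.964 and 8.22 ± 0.451, and CHS had moved down to 1.58 ± 0.487, within the spread of F3'H at 1.27 ± 0.388. FLS1 stood at 0.764 ± 0.276 and MYB12 and MYB111 at 0.474 ± 0.441 and 0.313 ± 0.117 CPM per kilobase.

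Ratios between members within a library, which do not depend on scaling, set the changes of the members side by side. The log2 ratio of CHS to CHI was -2.25, -1.27 and -2.02 in gi-2 replicates 1, 2 and 3 and 1.34, 0.70 and 0.54 in Col-0. CHS was thus below CHI in counts in every gi-2 library and above it in every Col-0 library, a difference in log2 ratio of -2.71. The log2 ratio of CHS to FLS1 differed by -2.11 and that of F3'H to CHS by 2.77, again without overlap between genotypes. For each of these 3 ratios the two-sided exact permutation test gave p = 0.1, the smallest that 3 libraries against 3 allow, or 0.2 adjusted over the 6 ratios computed. The ratio of UGT78D1 to UGT78D2 was 0.16 ± 0.19 in gi-2 and -0.05 ± 0.12 in Col-0 on the log2 scale (SD, n = 3 each; exact permutation p = 0.2), with overlapping libraries. The ratio of MYBL2 to MYB12 was 7.31, 5.53 and 8.16 in gi-2 and 5.82, 5.64 and 5.97 in Col-0. Ranges overlapped, since gi-2 replicate 2 lay below all Col-0 libraries and the other gi-2 libraries above them (exact permutation p = 0.4). The ratio of MYB111 to MYB12 overlapped as well, from -2.32 to 1.3 in gi-2 and from 0.29 to 0.53 in Col-0 (exact permutation p = 0.8).

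**Figure D4:**
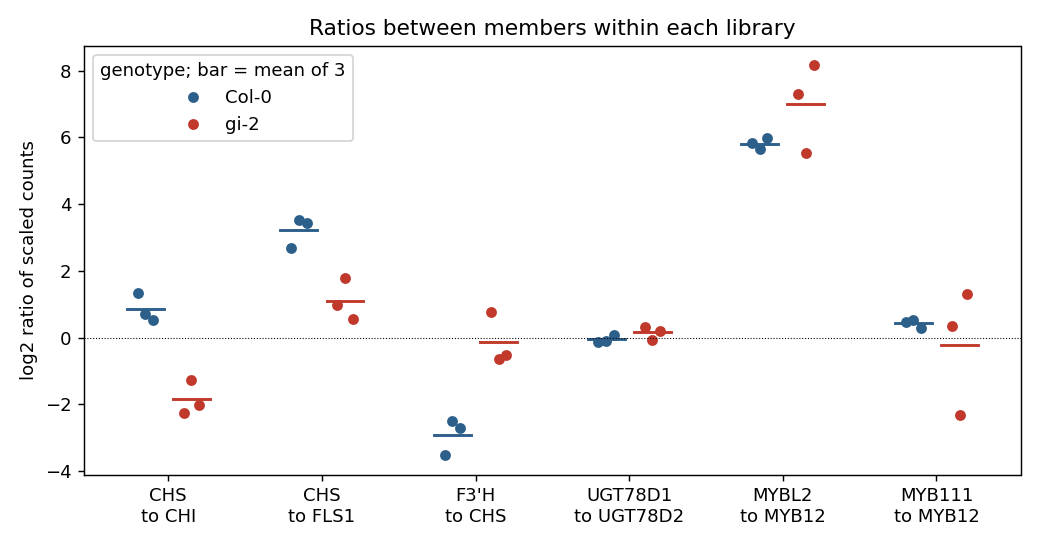
Log2 ratios of scaled counts of 6 pairs of members, with a point for each library and a bar for the mean of the 3 libraries of a genotype. The ratios that contain CHS are separated between genotypes, and the ratios that contain MYB12 are spread widely among the gi-2 libraries.

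Genes that supply the pathway were lower as well, by smaller amounts than CHS. Of 8 genes of the phenylpropanoid steps before CHS, 7 were called lower, beside 16.2% of all tested genes. This list and those that follow were chosen with earlier results of these data known. All 8 log2 fold changes were below 0, from -1.42 to -0.37 (median -0.50). Leaving out single libraries gave 5 to 8 lower genes, the fewest without Col-0 replicate 2. PAL2, a phenylalanine ammonia-lyase, averaged 195 ± 10.6 CPM in Col-0 against 111 ± 1.8 in the mutant (SD, n = 3 each; log2 fold change -0.82, SE 0.07; edgeR adjusted p = 1.14e-06). PAL1 and PAL4 fell by 0.48 and 0.52 and 4CL1, a 4-coumarate:CoA ligase, by 0.52 on the log2 scale. 4CL3, the ligase tied to flavonoid synthesis, had 30, 27 and 10 counts in gi-2 and 43, 66 and 49 in Col-0 (log2 fold change -1.42, SE 0.39; edgeR adjusted p = 0.0122). PAL3 did not pass (-0.38, SE 0.14; edgeR adjusted p = 0.0545). 4CL3 and PAL3 were named after their values were seen.

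Of 10 genes of the lignin and sinapate branch, which draws on the same precursor, 8 were lower and 1 higher (median -0.44), again beside 16.2% and 16.3% of all tested genes. CAD4, HCT, F5H and CCOAOMT1, all of monolignol synthesis, fell by 0.85, 0.63, 0.71 and 0.49 on the log2 scale. REF1, an aldehyde dehydrogenase of ferulate and sinapate synthesis, rose by 0.47. Other annotated genes overlap 81.2% of the span of CCR1, 23% of that of C3H1 (both called lower) and a smaller part of that of REF1, so these 3 values are uncertain. The lowest log2 fold change in these 2 lists was -1.42, against -2.96 for CHS.

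Among 24 further flavonoid enzymes and transporters, 10 were tested, of which 5 were lower and 1 higher (16.2% and 16.3% of all tested genes), while 3 had no counts in any library. Without gi-2 replicate 1, Col-0 replicate 2 or Col-0 replicate 3, 3 were lower. SCPL10, an acyltransferase-like protein of anthocyanin modification, had 6, 30 and 15 counts in gi-2 and 140, 101 and 85 in Col-0 (log2 fold change -2.87, SE 0.41, edgeR adjusted p = 9.85e-05). For SCPL10 every gi-2 library was below every Col-0 library, a lack of overlap seen, in either direction, for 45.3% of tested genes. Without gi-2 replicate 2 the SCPL10 value was -3.48. OMT1, an O-methyltransferase that acts on flavonols and lignin precursors, fell by 0.43. The anthocyanin acyltransferase genes A3AT1 and A3AT2 fell by 0.56 and 0.66 (edgeR adjusted p = 0.049 and 0.0234), but neither call was stable. Both were lost without gi-2 replicate 1, Col-0 replicate 2 or Col-0 replicate 3, where SCPL10, OMT1 and CHIL remained lower. Some other anthocyanin genes had too few counts to be tested. A3AT1, A3AT2 and the genes that follow were chosen after their values were seen. DFR, dihydroflavonol reductase, had 0, 1 and 0 counts in gi-2 and 9, 4 and 8 in Col-0, so that Col-0 was 23.4-fold higher (95% counting interval 3.76 to 967). LDOX, anthocyanidin synthase, had 31 counts over the Col-0 libraries and 10 over the mutant ones, 3.45-fold higher in Col-0 (1.65 to 7.89). TT19, a glutathione transferase of anthocyanin transport, had 15 counts over the Col-0 libraries and 0 over the mutant ones, at least 5.57-fold lower in gi-2 when 3 counts over the group are taken as the floor. These intervals and the floor cover counting error only. UGT89C1 and UGT73C6, flavonol glycosyltransferases with no counts, are overlapped over 99.6% and 100% of their spans by genes on the other strand, and, as for F3H, the count of 0 is not read as absence.

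Other regulators showed no common direction. Of 10 further activators, 3 were tested and 0 passed in edgeR or DESeq2, while 2 had an unadjusted edgeR p under 0.05 and limma-voom called 1 lower. Without Col-0 replicate 1, edgeR called 1 higher. Among the 3 were EGL3, a bHLH partner of anthocyanin MYB proteins (log2 fold change -0.67, SE 0.25; edgeR adjusted p = 0.0512), and TTG1, their WD40 partner (0.22, SE 0.09; edgeR adjusted p = 0.0843). PAP1, the main anthocyanin activator of seedlings, had 27 counts over the Col-0 libraries and 13 over the mutant ones. Of 14 further repressors and turnover factors, 12 were tested, with 3 higher and 1 lower, together 4 of 12 against 32.6% of all tested genes (0 lower without gi-2 replicate 3 or Col-0 replicate 3, 2 without Col-0 replicate 1). KFB01 and KFB20, F-box proteins that target phenylalanine ammonia-lyase for degradation, were higher in gi-2, by 0.97 and 0.61 on the log2 scale, at 63.4 ± 7.46 against 32.4 ± 1.5 CPM and 408 ± 28.0 against 267 ± 14.2 CPM (SD, n = 3 each). KFB-CHS, the F-box protein that targets CHS, stood at 203 ± 3.77 and 208 ± 9.07 CPM in gi-2 and Col-0 and did not pass (edgeR adjusted p = 0.743; log2 fold change -0.04, SE 0.07). MYB4, a repressor of phenylpropanoid genes, fell by 0.53 and MYB3, a related repressor, rose by 0.28, but neither call was stable. That of MYB4 was lost without gi-2 replicate 2, gi-2 replicate 3 or Col-0 replicate 3 (edgeR adjusted p up to 0.117), and that of MYB3 without any 1 library other than Col-0 replicate 3 (up to 0.156), with upper-quartile scaling and with the replicate block (0.0551). EGL3, TTG1, PAP1 and KFB-CHS were named after their values were seen.

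Light regulators of flavonoid genes were called in 14 of 17 tested cases, 9 lower and 5 higher (median -0.41), where 16.2% of all tested genes were lower and 16.3% higher. Without gi-2 replicate 1 or Col-0 replicate 2, 3 were higher. HY5, a direct activator of CHS and MYB12 in light, had 195, 175 and 154 counts in gi-2 and 290, 305 and 280 in Col-0 (log2 fold change -0.92, SE 0.14, edgeR adjusted p = 0.000168). For HY5 every gi-2 library was lower, a lack of overlap seen, in either direction, for 45.3% of tested genes. HYH, a relative of HY5, fell by 2.1. RUP2, a repressor of ultraviolet-B signalling that is itself induced by light, fell by 1.95 on the log2 scale. BBX25 and SPA3, both negative regulators of light signalling, fell by 1.40 and 0.69, in the same direction as the activator HY5. Other genes overlap 2.82% and 3.37% of the spans of BBX25 and SPA3, and 20.9% of that of BBX24. BBX24, COP1, SPA1 and SPA4 were also called lower. PIF3, a factor of dark growth that also acts on anthocyanin genes, and UVR8, the ultraviolet-B receptor, rose by 0.86 and 0.57. BBX20, BBX21 and CRY1, positive regulators of light signalling, were also called higher, by 1.01, 0.42 and 0.24 (edgeR adjusted p = 0.0387, 0.000531 and 0.0343). Positive regulators thus moved in both directions. HY5, PIF3, UVR8, BBX20, BBX21, BBX24, CRY1, COP1, SPA1, SPA4 and REF1 were named after their values were seen.

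**Figure D5:**
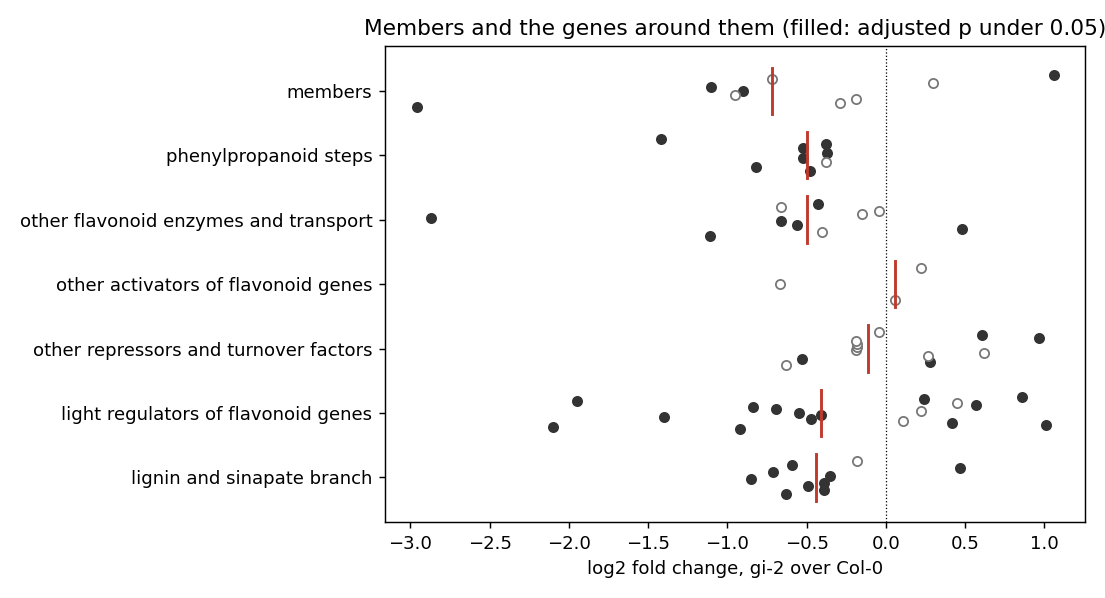
Log2 fold change of gi-2 over Col-0 for the tested members and for the tested genes of 6 surrounding lists, filled where the edgeR adjusted p is under 0.05, with a red line at each list's median. CHS at -2.96 and SCPL10 at -2.87 lie furthest below 0, and phenylpropanoid genes cluster near their median of -0.50.

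The genes with profiles most like a member's were sought for the 6 members with enough counts (an average log2 CPM of at least 1), among 17122 other genes, by the root mean square difference of centred log2 CPM over the 6 libraries. For CHS the nearest were AT1G13650, PPT2 (a plastid phosphoenolpyruvate translocator) and LTP6 (a lipid transfer protein), at 0.21, 0.24 and 0.26. For CHI they were AT3G46630, ZFN3 and AT4G30993, at 0.03 to 0.04, and for F3'H AT2G39445, NTMC2T5.1 and AT4G14370, at 0.09 to 0.1. For UGT78D1 they were AT4G24350, BLH6 (a homeodomain protein of cell wall control) and CAD4, at 0.04 to 0.05. For UGT78D2 they were GT18, CDF1 (a Dof repressor of flowering) and AT1G75460, also at 0.04 to 0.05. For MYBL2 they were AT1G07440, BCA6 (a beta carbonic anhydrase) and AT1G80970, at 0.03 to 0.06. No member was among the 3 nearest genes of any of these 6. Over 6 libraries of 2 genotypes, a near profile mainly marks a similar fold change. The neighbours of UGT78D2, for example, stood at -1.08, -1.10 and -1.15 on the log2 scale. Shared regulation was not tested.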

How the data were processed

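The deposited values are raw counts, whole numbers per gene and library that the authors did not scale, for 32833 genes, of which 8687 had no count. Per the submitters' processing notes, the tools were DESeq2, HTSeq 0.6.1 and STAR 2.5.5, with the build TAIR10. Sources used here give neither the counting mode nor its strand setting. Libraries were non-directional, per the labels' protocols. The deposited table also gives gene lengths in bases, used for CPM per kilobase. In 24 rows, none of a gene reported here, annotation columns were shifted and were read around. Start and end matched RefSeq TAIR10.1 for 32508 of 32524 nuclear genes.

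Counts were tested here in edgeR 4.0.16 (R 4.3.3) with TMM scaling and genotype as the only term, after filterByExpr had removed genes with low counts (minimum count 10, minimum total 15), with Benjamini-Hochberg adjustment over the remaining 19699. CPM are TMM-scaled. SEs follow from the F statistic. The test was run on simulated data. False calls stayed under the nominal share on average when the spread of a gene followed its level. They exceeded it when each gene kept its own spread, so calls close to the threshold of 0.05 are taken as less certain than their adjusted p. A far smaller share of genes was changed in the simulation than the 32.6% called here, so its share of false calls does not carry over. Alternatives used DESeq2 1.42.0, limma-voom (limma 3.58.1), RLE or upper-quartile scaling, other filters, a replicate block and omitted libraries. Replicate pairs differed beyond sampling noise (chi-square per degree of freedom 4.96 to 15.7). The labels call replicates biological but name no separate days, so the p-values reflect only how much these pools vary.

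Members and gene lists were chosen with earlier results of these data known. Named were all members, GI, up to 4 called genes per list (lowest adjusted p first), the 3 nearest profiles of each member whose log2 CPM averaged 1 or more, and overlapping genes. The planned ratio of CHS to F3H could not be formed.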

Additional observations from a re-analysis of the deposited data

How the results depend on the processing

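Over 14 alternatives (13 for MYB12 and MYB111, which an average of at least 1 CPM removed), the calls of CHS, UGT78D1, UGT78D2 and MYBL2 were kept and no other member was called, so 3 members were lower and 1 higher throughout. The log2 fold change of CHS ran from -3.23 to -2.76, of UGT78D1 from -0.95 to -0.86, of UGT78D2 from -1.19 to -1.02 and of MYBL2 from 0.99 to 1.20. MYB12 changed sign with limma-voom (-0.06) and without gi-2 replicate 2 (-0.79). With libraries left out singly it ran from -0.79 to 0.69. It also changed sign without both Col-0 replicate 1 and gi-2 replicate 2 (-0.86), a pair chosen after seeing the data. Col-0 replicate 1 stands apart on the second principal component, and gi-2 replicate 2 in the summed seed storage markers only. The cause was not tested. MYB4 and MYB3 lost their calls in 4 and 8 alternatives. Leaving out single libraries gave 3 to 5 lower genes among other flavonoid enzymes (3 without gi-2 replicate 1, Col-0 replicate 2 or Col-0 replicate 3), 0 to 1 higher among other activators (1 without Col-0 replicate 1), 0 to 2 lower among other repressors (0 without gi-2 replicate 3 or Col-0 replicate 3, 2 without Col-0 replicate 1) and 3 to 5 higher among light regulators (3 without gi-2 replicate 1 or Col-0 replicate 2). Other activators had 1 higher without the 2 libraries together, and 1 lower with upper-quartile scaling or limma-voom. With the replicate block, CHS stood at -2.96, FLS1 at -0.88 and MYB12 at 0.04, and 3123 genes were higher and 3038 lower. Same-numbered libraries did not deviate together (correlations of 0 to 0.02), so no pairing by number was seen. A shared day or batch was not tested. The block changed no call of a member. Among the up to 4 called genes named per list it lost MYB3 (edgeR adjusted p = 0.0551). It left 4 lower genes among other flavonoid enzymes, against 5 in the main analysis. SCPL10, OMT1 and CHIL kept their calls, so A3AT1 or A3AT2 lost its call. Counts of 5 to 37 per library limit MYB12 and MYB111, and 21 to 69 limit FLS1.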
